A study of Microtus ochrogaster and Microtus pennsylvanicus and Peromyscus californicus with 10 samples.

Results

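The deposited data list Ensembl protein IDs by read count, and 29 of the 9375 IDs listed in the tables of all 4 rodent species were at least 8-fold lower in both monogamous species than in their nonmonogamous partners. The members were chosen by their values. The RPM (the read count scaled to the size of its library, as deposited) had to be at least 8 times higher in Microtus pennsylvanicus than in Microtus ochrogaster, and at least 8 times higher in Peromyscus maniculatus than in Peromyscus californicus. The 4 rodent tables together listed 19750 IDs, so IDs absent from any 1 table could not become members.

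The series, according to its title, asks whether brain transcript profiles that go with monogamy are shared across vertebrates. The rodent samples were fore- and mid-brain of reproductive males, taken from M. ochrogaster (prairie vole), M. pennsylvanicus (meadow vole), P. californicus (California mouse) and P. maniculatus (deer mouse). Each species is represented by 1 library from a pool of 3 males, with no treatment or genetic alteration named in the labels. The labels give the species only; the mating systems are from general knowledge, M. ochrogaster and P. californicus being monogamous. With 1 library per species, the difference within a pair has no replicate check, species and library cannot be told apart, and variation between the pooled animals is not visible. In these whole-tissue samples, fewer cells of a type and less RNA per cell cannot be told apart either. The rodent tables list IDs of the same prefix (ENSRNOP) for every species. How well the reads of a species match an ID therefore cannot be told apart from its RNA level.

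As background, prairie voles form lasting pair bonds and California mice live in pairs in which the male helps to raise the young, whereas male meadow voles and deer mice mate with several females. Work on pair bonding in voles has centred on oxytocin, vasopressin and dopamine signalling in the forebrain, and closely related species differ in where the receptors for these messengers are made. Whether any of the 29 IDs belongs to these systems is not shown here, because the tables carry protein IDs without gene names. None of the 19750 IDs (0) was found in the gene table used here. Markers of brain cell types could therefore not be looked up, and the labelled tissue was not checked against them.

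RPM is not scaled by transcript length, so a level of 1 ID says more about the same ID in another library than about another ID. The RPM scale rested on 274693175 reads in M. ochrogaster and on 75649532 to 101971826 reads in the other rodent libraries. The lowest listed count was 36 in M. ochrogaster, 7 in M. pennsylvanicus, 1 in P. californicus and 6 in P. maniculatus. Over all 9375 IDs the median log2 ratio of nonmonogamous to monogamous RPM was -0.12 for the vole pair and -0.22 for the Peromyscus pair. With TMM scaling, which centres the libraries on the bulk of the IDs, these medians were -0.03 and 0.03, and 37 IDs met the rule, including all 29.

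Across the 29 IDs, the levels in the nonmonogamous libraries were spread over more than 3 orders of magnitude. In M. pennsylvanicus they ran from 6.07 to 6831 RPM with a median of 60.9. In P. maniculatus they ran from 4.14 to 10452 RPM with a median of 74.1. The same IDs had a median of 3.17 RPM in M. ochrogaster (0.397 to 65.5) and 1.79 RPM in P. californicus (0.0942 to 41.1). The median over all 9375 IDs was 22.7 to 29.7 RPM in the 4 libraries, so the members lay mostly above the middle of the nonmonogamous libraries and far below the middle of the monogamous ones. By rank within a library, 21 of the 29 were above the median ID in M. pennsylvanicus and 21 in P. maniculatus, against 1 in M. ochrogaster and 1 in P. californicus. In the lowest tercile of both monogamous libraries lay 23 members, and in the top 10% of both nonmonogamous libraries lay 6.

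**Figure D1:**
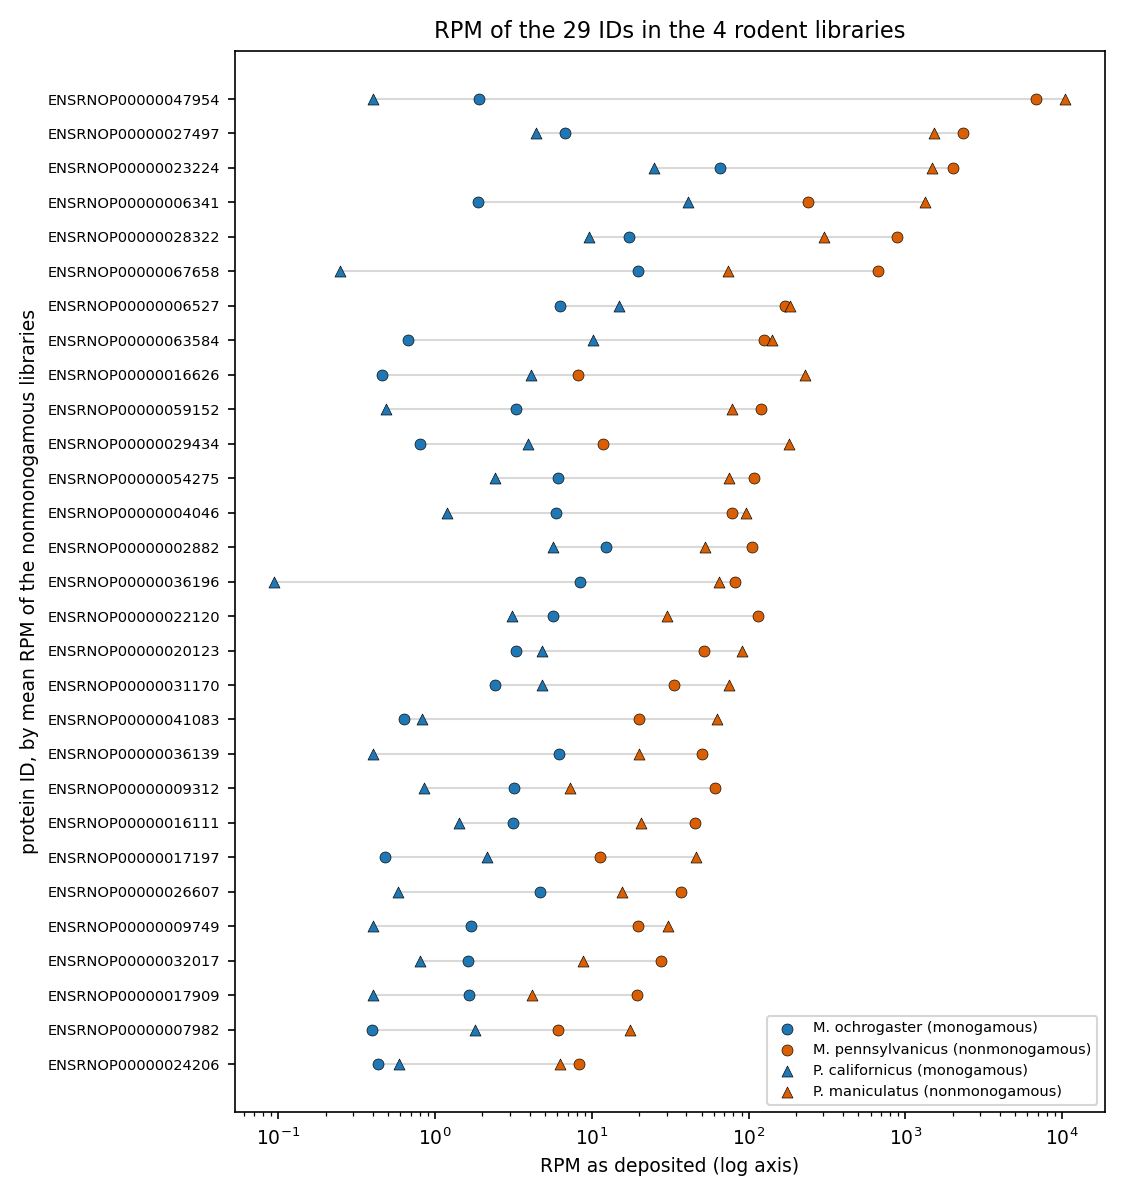
RPM of each of the 29 IDs (rows, ordered by mean RPM of the nonmonogamous libraries) in the 4 rodent libraries, on a log axis; blue is monogamous, orange nonmonogamous, circles voles and triangles Peromyscus mice, with 1 library per species. In every row both orange points lie to the right of both blue points, and ENSRNOP00000047954 at the top spans the widest range, from 0.400 to 10452 RPM.

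The vole ratio of the members had a median of 17.8 (8.004 to 3588), and the Peromyscus ratio a median of 31.3 (8.51 to 26118). An 8-fold excess in M. pennsylvanicus was found for 554 of the 9375 IDs (5.91%), and in P. maniculatus for 550 (5.87%). An 8-fold excess in the monogamous partner was more frequent, at 10.5% of IDs for the vole pair and 8.35% for the Peromyscus pair. The members are 5.23% of the first list and 5.27% of the second. An ID 8-fold higher in the meadow vole was thus about as often 8-fold higher in the deer mouse as any other ID was. IDs that met the rule in both pairs were 0.309% of all, a number set by the rule and read here only against the exchanged labels.

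Exchanging the labels of 1 pair gave more IDs than the true labels, in a background where 8-fold excess in a monogamous library is the more frequent. With the Peromyscus labels exchanged, 47 IDs (0.501%) passed 8-fold in both pairs, being high in M. pennsylvanicus and P. californicus. They are 8.48% of the IDs 8-fold higher in M. pennsylvanicus, close to the 8.35% of all IDs that were 8-fold higher in P. californicus. With the vole labels exchanged, 108 IDs (1.15%) passed, being high in M. ochrogaster and P. maniculatus. They are 19.6% of the IDs 8-fold higher in P. maniculatus, where 10.5% of all IDs were 8-fold higher in M. ochrogaster. Most of these (86) lay in the lowest tercile of mean abundance. There the shares were 22.9% and 19.4%, closer together than in the other terciles (given below). The mirror image of the rule, 8-fold higher in both monogamous species, held for 129 IDs (1.38%). The order of these counts was the same at 4-fold, where 75 IDs were lower in both monogamous species and the exchanges gave 145 and 280. At 16-fold the numbers were 11, 14 and 44. At none of these 3 thresholds did the grouping by mating system give more IDs in this direction than either exchange did.

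**Figure D2:**
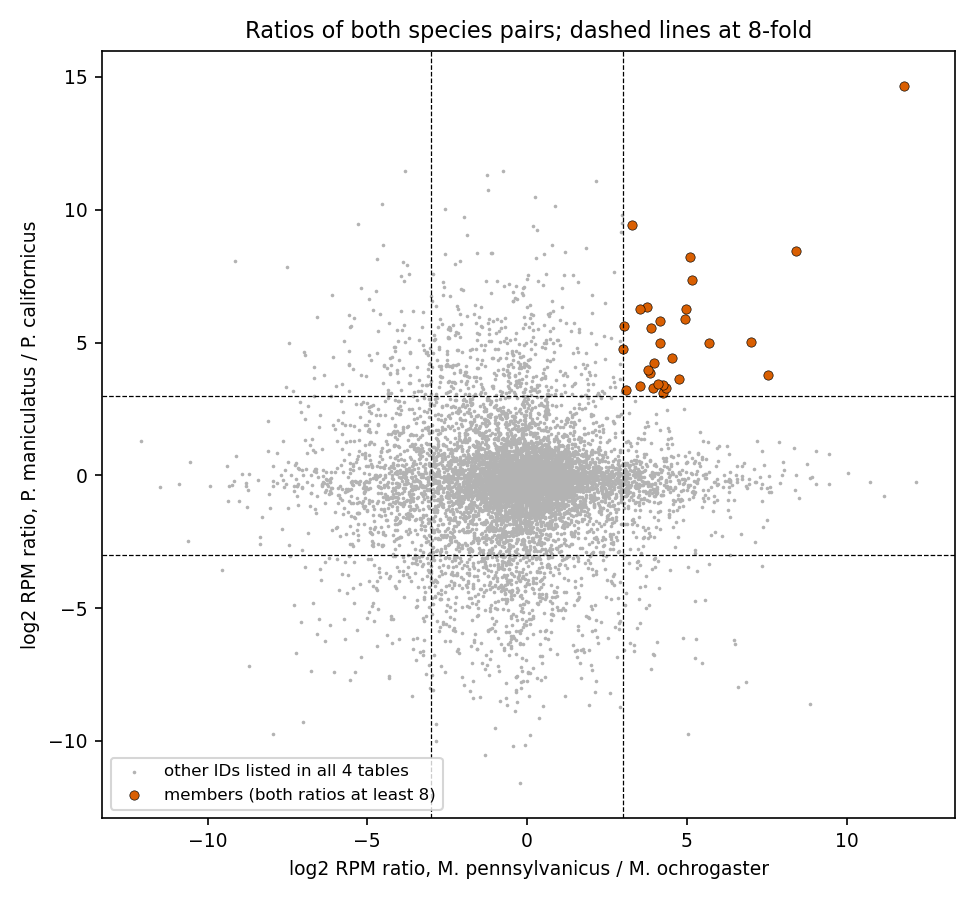
Log2 RPM ratio of nonmonogamous to monogamous species in the voles (x axis) and the Peromyscus mice (y axis) for the 9375 IDs listed in all 4 tables (1 point per ID, no replicates), with dashed lines at 8-fold. The 29 members fill the upper right corner thinly, and 1 of them, ENSRNOP00000047954, lies far from the rest.

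The counts were also taken by abundance. IDs were split into terciles of 3125 by mean log2 RPM over the 4 libraries, the highest beginning at a geometric mean of 37.6 RPM. In the lowest tercile 14 IDs were members, against 26 and 86 with the Peromyscus and the vole labels exchanged. The middle tercile held 9 members, against 18 and 18. In the highest tercile there were 6 members against 3 and 4. At 16-fold that tercile held 5, against 0 and 1, but at 4-fold it held 11 against 11 and 10, so the order there depends on the threshold. In that tercile 6 of the 167 IDs 8-fold higher in M. pennsylvanicus were also 8-fold higher in P. maniculatus (3.59%), as were 50 of all its 3125 IDs (1.6%). With the vole labels exchanged, 8% of the IDs 8-fold higher in P. maniculatus were 8-fold higher in M. ochrogaster, as were 3.07% of all IDs of the tercile. The Peromyscus exchange held 1.80% of the IDs 8-fold higher in M. pennsylvanicus, where 2.27% of all IDs were 8-fold higher in P. californicus. Set against these shares of the highest tercile, the true labels did not stand apart from the vole exchange. The Peromyscus exchange lay below the share over all IDs there. The mean that sets the tercile includes the high levels that chose the members. ENSRNOP00000047954, ENSRNOP00000027497, ENSRNOP00000028322 and ENSRNOP00000006527 were at most 17.2 RPM in the monogamous libraries. They entered the highest tercile through the nonmonogamous ones. ENSRNOP00000006341 was far under the start of that tercile in M. ochrogaster (1.88 RPM) and little above it in P. californicus (41.1 RPM). These are counts of a few IDs in 4 libraries, the split was chosen after the data were seen, and the difference between terciles was not tested.

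**Figure D3:**
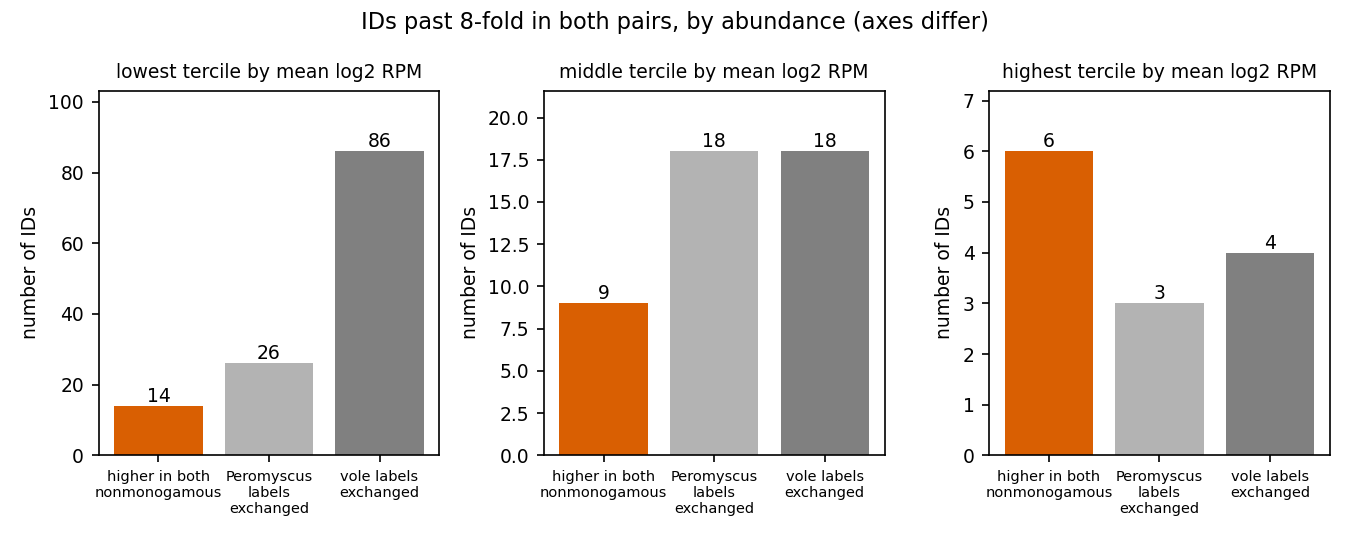
Number of IDs past 8-fold in both pairs (bars) in each tercile of mean log2 RPM, for the true labels (orange) and for the labels of 1 pair exchanged (grey); the y axes start at 0 and differ between panels. The exchanges exceed the true labels in the lowest and middle terciles (86 and 26 against 14 in the lowest), and not in the highest (6 against 3 and 4), an order that does not hold at 4-fold (11 against 11 and 10). The bars are counts, and do not allow for how frequent 8-fold excess is in each library and tercile.

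The members' reads were concentrated in a few IDs. Summed over the 29 IDs, the members held 14261 RPM in M. pennsylvanicus and 16716 RPM in P. maniculatus, which is 1.43% and 1.67% of the reads behind the RPM scale. In M. ochrogaster they held 192 RPM and in P. californicus 147 RPM. The summed level was 74.1-fold higher in the meadow vole than in the prairie vole, and 114-fold higher in the deer mouse than in the California mouse. ENSRNOP00000047954 alone held 47.9% of the members' sum in M. pennsylvanicus and 62.5% in P. maniculatus. Without it the summed folds were 39.0 and 42.9, and without the 2 most abundant members they were 27.8 and 33.4.

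ENSRNOP00000047954 had the highest level in both nonmonogamous libraries and the largest ratio in both pairs. It was counted 516737 times in M. pennsylvanicus (6831 RPM) and 1065846 times in P. maniculatus (10452 RPM). In M. ochrogaster it had 523 counts (1.90 RPM), and in P. californicus 34 counts (0.400 RPM). Among the 9375 IDs it ranked 9 in M. pennsylvanicus and 5 in P. maniculatus by RPM, but 8925 in M. ochrogaster and 9153 in P. californicus. The groups were separated by more than 3 orders of magnitude, and the vole ratio was 3588 (95% exact binomial interval for counting error 3293 to 3916) and the Peromyscus ratio 26118 (18690 to 37714). The counting intervals, here and for the ratios below, cover neither animals nor libraries.

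ENSRNOP00000027497 came next by mean level in the nonmonogamous libraries and by the smaller of its ratios. Its levels were 2326 RPM in M. pennsylvanicus and 1531 RPM in P. maniculatus, against 6.76 RPM in M. ochrogaster and 4.38 RPM in P. californicus. Both nonmonogamous libraries were high and both monogamous ones low, with the species of each kind within 2-fold of each other. The vole ratio was 344 (counting interval 329 to 360) and the Peromyscus ratio 350 (316 to 388), and these intervals overlap.

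The highest tercile by mean abundance held 4 further members. One of them, ENSRNOP00000006341, is described with the ratios below. The others, ENSRNOP00000023224, ENSRNOP00000028322 and ENSRNOP00000006527, are outside the fixed naming rules and are given because the count for that tercile rests on them. ENSRNOP00000023224 had 65.5 RPM in M. ochrogaster, 1998 in M. pennsylvanicus, 25.0 in P. californicus and 1480 in P. maniculatus, ratios of 30.5 and 59.3. It was the only member above the median ID of the prairie vole library, and so was low there only against its own level in the meadow vole. ENSRNOP00000028322 had 17.2, 886, 9.64 and 302 RPM in the same order of libraries, ratios of 51.6 and 31.3. ENSRNOP00000006527 had 6.27, 171, 14.9 and 182 RPM, ratios of 27.2 and 12.3. In each of these 3 IDs the nonmonogamous levels lay above both monogamous levels, with gaps of 11.5-fold to 22.6-fold.

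Beyond ENSRNOP00000047954 and ENSRNOP00000027497, the gap between the kinds of library was narrower. The lower nonmonogamous level exceeded the higher monogamous level in 29 of 29 members, an order that 10.5% of all IDs showed and that the choice of members largely fixes. This gap was 3588-fold for ENSRNOP00000047954 and 226-fold for ENSRNOP00000027497, with a median of 7.001-fold. It was narrowest, at 1.97-fold, for ENSRNOP00000016626. For this ID the level of 8.10 RPM in M. pennsylvanicus was less than 2 times the 4.11 RPM in monogamous P. californicus. The gap was at least 8-fold for 13 members and at least 16-fold for 6.

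At the threshold, the last members inside were ENSRNOP00000026607 and ENSRNOP00000036139. ENSRNOP00000026607 had 4.65 RPM in M. ochrogaster, 37.2 in M. pennsylvanicus, 0.577 in P. californicus and 15.5 in P. maniculatus, and its vole ratio was 8.004 (counting interval 7.49 to 8.56). ENSRNOP00000036139 had 6.13, 50.4, 0.400 and 19.9 RPM in the same order, with a vole ratio of 8.22 (7.76 to 8.71). Just outside were ENSRNOP00000003696 and ENSRNOP00000034471, both with a vole ratio of 7.91 (counting intervals 7.82 to 8.01 and 7.37 to 8.50). The levels of ENSRNOP00000003696 were 153 RPM in M. ochrogaster, 1215 in M. pennsylvanicus, 0.718 in P. californicus and 520 in P. maniculatus, a Peromyscus ratio of 724. ENSRNOP00000034471 had 4.03, 31.9, 1.77 and 15.4 RPM, a Peromyscus ratio of 8.72. Both were left out only by their vole ratio, and the latter was close to the threshold in both pairs. Counting error alone left 25 of the 29 members with both lower bounds at 8 or above, while for 4 members 1 lower bound fell under 8.

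The weakest members were still well counted in the nonmonogamous libraries. ENSRNOP00000024206 had the lowest mean RPM of all, with 8.28 RPM in M. pennsylvanicus (626 counts) and 6.30 in P. maniculatus (642 counts). It had 0.430 RPM in M. ochrogaster (118 counts) and 0.589 in P. californicus (50 counts). ENSRNOP00000017909 had 19.4 and 4.14 RPM in the meadow vole and deer mouse, against 1.65 and 0.400 RPM in the prairie vole and California mouse. For both IDs the nonmonogamous libraries lay above the monogamous ones, although P. maniculatus exceeded M. ochrogaster only 2.50-fold for ENSRNOP00000017909. Every member had at least 422 counts in each nonmonogamous library and at least 109 in M. ochrogaster. In P. californicus 12 members had under 100 counts, and ENSRNOP00000036196, named here after its values were seen, had 8.

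The ratios of the pairs matched each other within 2-fold for 13 of the 29 members and within 4-fold for 21. The Peromyscus ratio was the larger for 18 members and the vole ratio for 11, and the counting intervals of both ratios were apart for 22. Among members with at least 10 counts in every library, the Peromyscus ratio exceeded the vole ratio most for ENSRNOP00000067658 and ENSRNOP00000047954. ENSRNOP00000067658 had 19.7 RPM in the prairie vole and 667 in the meadow vole, a ratio of 34.0 (counting interval 33.0 to 34.9). It had 0.247 RPM in P. californicus (21 counts) and 74.1 in P. maniculatus, a ratio of 300 (196 to 485). Each Peromyscus level was thus below that of the vole of the same mating system, and by more between the monogamous species.

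The opposite lean was largest for ENSRNOP00000063584 and ENSRNOP00000006341. ENSRNOP00000063584 had 0.673 RPM in the prairie vole and 125 in the meadow vole, a ratio of 186 (161 to 216). In P. californicus it had 10.2 RPM and in P. maniculatus 141, a ratio of 13.8 (12.9 to 14.8). Its nonmonogamous levels were nearly equal, so the ratios differ through the monogamous libraries. ENSRNOP00000006341 had 1.88 and 240 RPM in the prairie and meadow vole, and 41.1 and 1339 RPM in the California and deer mouse. Its vole ratio was 128 (117 to 140) and its Peromyscus ratio 32.6 (31.5 to 33.7), and its level in P. californicus was the highest of any member there.

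The difference between the genera is a contrast that the rule did not use. Between the nonmonogamous libraries, 13 of the 29 members were within 2-fold, or 22 within 4-fold, where 54.9% and 74.6% of all IDs were. Between the monogamous libraries only 7 were within 2-fold and 14 within 4-fold, where 49.3% and 70.6% of all IDs were. These counts are a description: the difference between them is that between the ratios that chose the members, and it was not tested. M. ochrogaster was above P. californicus for 18 of the 29 members, an order that 48.7% of all IDs showed. M. pennsylvanicus was above P. maniculatus for 16 of the 29, an order that 54.8% of all IDs showed. Both voles were above the Peromyscus mouse of the same mating system for 15 members, where 29.3% of all IDs were. Both were below for 10 members, where 25.8% of all IDs were. Of the remaining 4 members, 3 had their highest level in P. maniculatus and their lowest in P. californicus, and 1 had its highest in M. pennsylvanicus and its lowest in M. ochrogaster.

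**Figure D4:**
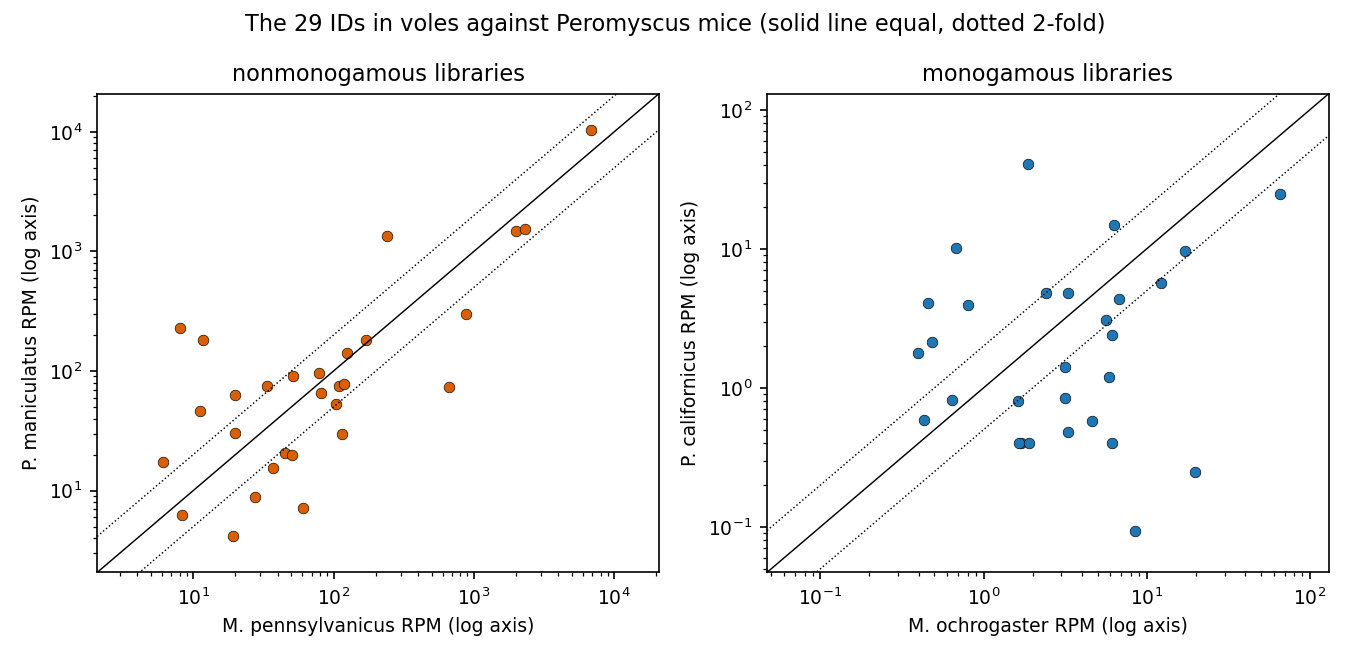
RPM of the 29 IDs in voles (x axes) and Peromyscus mice (y axes), log scales, for the nonmonogamous libraries (left) and the monogamous libraries (right), 1 library per species; the solid line marks equal RPM and the dotted lines 2-fold. Within the dotted lines lie 13 members on the left and 7 on the right.

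Mean log2 RPM over a genus differed between voles and Peromyscus mice by -4.00 to 4.74 over the members (voles minus Peromyscus mice), with a median of 0.91 against 0.03 over all IDs. Only 8 of the 29 were within 2-fold on this mean, where 56.7% of all IDs were. This too describes IDs chosen for their wide ratios within each genus, and the difference from that share was not tested. In edgeR's quasi-likelihood test of voles against Peromyscus mice with mating system as a term, 0 of 29 members and 0 of 9375 IDs (0%) passed an adjusted p of 0.05. No adjusted p was below 0.899. In edgeR 4 members (13.8%) and 395 of all IDs (4.21%) had an unadjusted p under 0.05. Without the mating term, 0 members and 571 of all IDs had one in edgeR. In that fit the difference that chose the members counts as spread, so neither count of members is free of the rule. DESeq2's Wald test called 537 IDs (5.73%), 4 of them members. The fit has 2 species per genus and 1 residual degree of freedom, and the p-values measure the spread between these libraries only. With mating system as a term, that spread is how far the ratios of both pairs differ from each other. The rule used those ratios, so the members' p-values are not independent of how the members were chosen.

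The members with the highest vole levels relative to Peromyscus mice were ENSRNOP00000067658, with a mean log2 difference of 4.74, and ENSRNOP00000036139, with 2.64. For ENSRNOP00000067658 M. ochrogaster was 79.5-fold above P. californicus, and M. pennsylvanicus 9.003-fold above P. maniculatus. In edgeR its log2 fold change was 4.70 ± 1.29 (approximate SE, from the F statistic), with an adjusted p of 0.899. DESeq2's adjusted p for it was 0.00188.

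In the other direction stood ENSRNOP00000016626, with a mean log2 difference of -4.00, and ENSRNOP00000006341, with -3.47. ENSRNOP00000016626 had 0.455 RPM in the prairie vole and 8.10 in the meadow vole, against 4.11 in P. californicus and 230 in P. maniculatus. Its edgeR log2 fold change between the genera was -4.01 ± 0.84 (adjusted p = 0.899), and DESeq2 gave an adjusted p of 0.00411. The deer mouse level was 28.4-fold above that of the meadow vole, more than the 17.8-fold between the voles. For ENSRNOP00000006341 edgeR gave -3.47 ± 0.74 (adjusted p = 0.899) and DESeq2 an adjusted p of 0.0171. The remaining member called by DESeq2 was ENSRNOP00000029434, also lower in the voles (adjusted p = 0.0404), and named here after its values were seen.

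The members were last set beside the IDs found with exchanged labels by level. The highest level among the 29 members was 10452 RPM, and among the 47 IDs found with the Peromyscus labels exchanged it was 1262 RPM. Among the 108 IDs found with the vole labels exchanged it was 3510 RPM. Without ENSRNOP00000047954 the highest member level was 2326 RPM, below that of the vole exchange. The median level on the high side was 60.9 and 74.1 RPM for the members, 68.0 and 58.8 RPM with the Peromyscus labels exchanged (M. pennsylvanicus and P. californicus), and 27.3 and 30.5 RPM with the vole labels exchanged (M. ochrogaster and P. maniculatus). In M. pennsylvanicus the members' median was below that of the Peromyscus exchange. All of these groups were chosen by their values, and no test was made between them.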

How the data were processed

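Fore- and mid-brain RNA of 3 pooled males per species was sequenced. The submitters' processing notes name BWA, SAMtools and Trimmomatic, without versions. Not given in the sources used here are the reference and the counting of reads that match several proteins. Per the labels' protocols, a NEB small RNA kit was used for the libraries. Per the file headers, each table holds the raw read count, a whole number without normalization, and RPM. The deposited RPM equals the count divided by 1 constant per library, which exceeds the listed counts (93.8% to 95.6% of it).

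The rule was applied to deposited RPM without a prior count. The members and lists were chosen with earlier results of these data known. Exact binomial (Clopper-Pearson) 95% intervals of ratios were conditioned on both counts. The genus test used raw counts in edgeR 4.0.16 (R 4.3.3) with filterByExpr (which removed no ID) and TMM. It used quasi-likelihood and Benjamini-Hochberg adjustment at 0.05, and was also run on simulated counts. Their spread was set below that of the data, where the fitted biological coefficient of variation was 0.826. That check therefore cannot show what the test would find at the spread of the data. DESeq2 1.42.0 was an alternative. IDs were named by fixed rules: the 2 highest by nonmonogamous mean RPM, the 2 highest by the smaller ratio, 2 on each side of the threshold, 2 in each direction by genus difference and by difference of ratios, and the 2 lowest by mean RPM. The planned gene lists and cell type markers need gene names and were not used. The other 6 species use other ID prefixes and were not analysed here.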

Additional observations from a re-analysis of the deposited data

How the results depend on the processing

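The count of IDs lower in both monogamous species was 75 at 4-fold and 11 at 16-fold; with the Peromyscus labels exchanged it was 145 and 14, and with the vole labels exchanged 280 and 44. These move by construction of the threshold. With IDs unlisted in a monogamous table set to the lowest count listed there, 191 IDs met the rule, the 29 members included. In the tercile of highest mean abundance, a split chosen after seeing the data, the counts were 6 for the true labels and 3 and 4 for the exchanges, but 11, 11 and 10 at 4-fold. Other scalings gave 26 for the true labels (CPM over IDs listed in all 4 tables, all of them members), 37 (TMM) and 37 (DESeq2 size factors). The Peromyscus exchange gave 41, 43 and 45 in the same order, and the vole exchange 124, 113 and 110. The true labels stayed below both exchanges. They came closer to the Peromyscus exchange with TMM and DESeq2 size factors than with deposited RPM (29 against 47). The minimum of 10 counts in each library kept 28 members. The genus test in edgeR called 0 IDs with other size factors, without the count filter and without the mating term, and 0 when each library was left out without the mating term, fits that assume the lone species varies like the others. With the mating term no residual degree of freedom is left after removal of a library, so that was not run. The count filter had removed no ID, so the fit without the filter only repeats the main fit. DESeq2's Wald test called 537 IDs and 4 members; the cause of this difference was not tested. No paired analysis was possible because the labels carry no replicate numbers; the pairing of species by genus is the contrast that chose the members, so it was not tested.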

Other observations

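IDs that a monogamous table does not list fall outside the rule. Of 11374 IDs listed in both nonmonogamous rodent tables, 9375 were listed in both monogamous ones. With the lowest listed count standing in for a missing entry, 162 further IDs had both ratios at 8 or above. Of these, 98 were unlisted only in P. californicus, 4 only in M. ochrogaster and 60 in both. Their median level was 22.2 RPM in M. pennsylvanicus and 5.07 RPM in P. maniculatus, with highest levels of 1748 and 547 RPM. The lowest listed level was 0.131 RPM in M. ochrogaster and 0.0118 RPM in P. californicus, so an ID needed less RPM in P. maniculatus than in M. pennsylvanicus to reach 8-fold by this stand-in.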
